A study of Mus musculus with 11 samples.

Results

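Vascular endothelium, the single layer of cells that lines blood vessels, made up 1106 of the 110304 single nuclei measured in mouse brain (1.00%). The nuclei are those to which the deposited annotation gives that class name by label transfer, a step that scores each nucleus against an annotated reference. They came from 11 droplet single-nucleus RNA libraries of mice with the label hTfR KI HOM, a homozygous knock-in of the human transferrin receptor (TfR). Every group shares that genotype, had 4 intravenous doses a week apart, and was sampled 72 h after the last. ATV:BACE1, at 57 mg/kg, binds the TfR, carries no antisense oligonucleotide (ASO) and is the control (n = 3 libraries). nonTV:Malat1, at 60 mg/kg and titled RSV-ASO, carries the Malat1 ASO on a protein that does not bind the TfR (n = 3). The Malat1 ASO group had the oligonucleotide alone, here also called the free ASO, at 2.5 mg/kg (n = 2). OTV:Malat1 joins the same ASO to a TfR-binding protein and was given at 60 mg/kg (n = 3). None of the 4 groups was untreated, and the control is itself a dosed TfR-binding protein. nonTV:Malat1 and the free ASO thus differ from control in TfR binding as well as in the ASO. Replicate 1 of each group was female at 2.33 months and in batch 1. Replicate 4 was male at 2.57 months and in batch 3, and replicate 5 was male at 2.33 months and in batch 4. Batch therefore cannot be told apart from sex or from age, although replicates 1 and 5 share their age and replicates 4 and 5 their sex. The labels do not say whether a library pools animals, and p-values measure at most the spread between these libraries. Those of the models across genes estimate that spread partly from other genes. The labels give the brain region as posterior and the strain as the knock-in, whereas the deposited metadata give cortex and C57BL/6J.

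Endothelial cells of brain capillaries form the blood-brain barrier: tight junctions seal the gaps between them, transporters feed the brain and efflux pumps return drugs to the blood. The TfR on their luminal surface takes iron-loaded transferrin from blood into vesicles that can cross the cell, a route that TfR-binding proteins use. Malat1 is a long non-coding RNA that stays in the nucleus, where an ASO of the type that recruits RNase H can bind its target and have it cut. The endothelium is the first brain cell layer that a molecule in blood meets, and the comparison asks how far Malat1 differs there between delivery routes.

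The nuclei held a median of 960.5 UMIs (unique molecular identifiers, 1 for each captured RNA molecule) and 759 genes, with 499 to 9135 UMIs per nucleus. Libraries contributed 58 to 134 nuclei and 60084 to 204437 UMIs, 1369196 in all. No barcode of the class was shared between libraries. The median prediction score was 0.882, and 72 nuclei scored under 0.5. Of the 1106 nuclei, 1083 lay in the authors' cluster 6, where they were 22.2% of the 4889 nuclei. The other 23 lay outside it, most often in cluster 4. The authors' doublet calls marked 19 nuclei of the class (1.72%), 9 of them among those 23, and these were kept in the main test.

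The class label matched its defining markers. Flt1, a receptor for vascular endothelial growth factor, had a mean of 5579 CPM (counts scaled to a common library total) over the libraries, 153 times that of all other nuclei. Cldn5, the claudin of the barrier's tight junctions, was at 2428 CPM, 111 times the other nuclei. Pecam1, an adhesion molecule at endothelial contacts, averaged 592 CPM, 89.7 times the other nuclei, with 389 CPM in the lowest library and 724 in the highest. All 30 of 30 pan-endothelial genes were above the other nuclei, and 28 reached 100 CPM. Because the label was itself drawn from expression, these levels describe the class and are no test. Levels here are not scaled by gene length, so each gene is compared with itself in other nuclei and not with other genes.

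**Figure D1:**
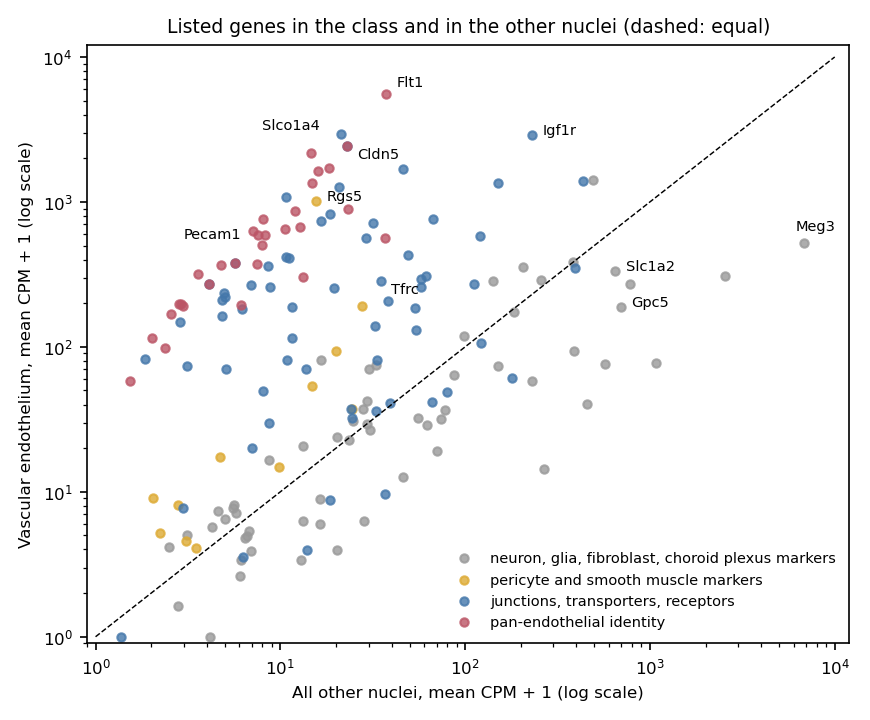
Mean CPM plus 1 of listed genes in vascular endothelium (y axis) against all other nuclei (x axis), both on log scales, 1 point per gene and coloured by list; the dashed line marks equal levels. All 30 pan-endothelial genes lie above the line, as do 1 of 10 neuron markers and 5 of 10 astrocyte markers. The neuron marker Meg3 and the astrocyte marker Gpc5 lie below it.

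Endothelium was not the only class with these transcripts. The 930 nuclei named pericytes, 898 of them also in cluster 6, held Flt1 at 4281 CPM and Cldn5 at 2178 CPM in their pooled counts. They also held the pericyte genes Vtn at 2529 CPM and Pdgfrb at 564 CPM, against 185 and 49.7 CPM in the pooled counts of vascular endothelium. Rgs5, another pericyte and smooth muscle marker, was closer, at 1658 against 998 CPM. Vascular endothelium thus held pericyte RNA too, and all 12 pericyte and smooth muscle markers were above the other nuclei there. Nuclei named pericytes had a median of 1930.5 UMIs, above that of the endothelium. The name pericytes thus goes against part of what these nuclei carry, and they are called nuclei named pericytes throughout. The 330 nuclei named vascular smooth muscle held Flt1 at 691 CPM and Cldn5 at 209 CPM.

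In vascular endothelium 18177 of 25938 genes had a UMI, 10749 reached 10 CPM and 2301 reached 100 CPM. Of the genes at 100 CPM or more, 304 were at least 10 times higher than in all other nuclei, and 480 were lower. Among the 15 genes with the highest ratio to other nuclei, Adgrl4, an adhesion receptor of growing vessels, was 161 times the other nuclei at 2191 CPM. Slco1a4, an organic anion transporter of the barrier, was 144 times the other nuclei at 2933 CPM. The chemokine Cxcl12 was 140 times the other nuclei at 2492 CPM. Kdr, the main signalling receptor for vascular endothelial growth factor, was 122 times and Foxq1, a transcription factor of brain endothelium, 118 times. The efflux pump gene Abcb1a, which encodes P-glycoprotein, was 112 times the other nuclei at 1087 CPM. The other 7 of these 15 genes that are not class markers were Zfp366 at 152 times, Gimap6 at 149, Dipk2b at 147, Nostrin, a regulator of endothelial nitric oxide synthase, at 128, Gch1 at 123, the endothelial guidance receptor Robo4 at 111 and Mecom at 110 times the other nuclei.

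The barrier's machinery was present across its parts. All 22 listed solute carriers were above the other nuclei and 19 reached 100 CPM. Slc2a1, the glucose transporter of the barrier, was at 1267 CPM against 19.7 CPM, and Slco1c1, which carries thyroid hormone, at 1679 against 45.3 CPM. The taurine transporter Slc6a6 was at 1357 CPM, 9.01 times the other nuclei. Of 18 junction genes 15 were above the other nuclei: Tjp1, a scaffold of tight junctions, was at 1395 CPM and 3.21 times, and Cgnl1, which links junctions to the cytoskeleton, at 407 CPM and 40.3 times. Of 10 efflux transporters 6 were above the other nuclei, with Abcg2 at 826 CPM and 47.1 times and Abcc4 at 715 CPM and 23.3 times.

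Among receptors that carry cargo through the endothelium, Igf1r, the receptor for insulin-like growth factor, was at 2892 CPM and 12.6 times the other nuclei. Insr, the insulin receptor, was at 578 CPM and 4.84 times. Tfrc, the mouse symbol under which TfR transcripts are counted, was at 283 CPM, from 169 to 433 CPM over the libraries, and 8.34 times the other nuclei. How reads of the knock-in allele were counted is not given in the sources used here. Of the 15 receptors 12 were above the other nuclei, and Ager had no UMI in 1369196. Of 20 genes for caveolae, clathrin and endosomal sorting 19 were above the other nuclei, with Cavin2, a coat protein of caveolae, at 203 CPM and 38.4 times.

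Wnt signals maintain the barrier, and all 21 listed Wnt genes were above the other nuclei. Lef1, a transcription factor that reads out the pathway, was at 1016 CPM and 20.1 times, and Apcdd1, a Wnt target, at 413 CPM and 59.0 times. Capillary genes were all 12 above the other nuclei, including Hmcn1 at 1613 CPM and 94.4 times and Spock2 at 1518 CPM and 16.0 times. All 16 arterial and 13 of 15 venous genes, which mark larger vessels, were above the other nuclei, and 3 of each list reached 100 CPM. The arterial gene Tm4sf1 was at 387 CPM, and the venous genes Tmsb10 and Il1r1, the interleukin 1 receptor, at 223 and 128 CPM. Of 18 genes of endothelial activation 3 reached 100 CPM, among them Nfkbia, the inhibitor of NF-kappa B, at 504 CPM and 56.7 times. Of 22 genes of interferon response and nucleic acid sensing 2 reached 100 CPM: Isg15, a ubiquitin-like protein induced by interferon, at 167 CPM and 48.0 times, and Bst2, or tetherin, at 118 CPM and 48.9 times.

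Malat1 lies at chr19:5795690-5802672 on the minus strand of mm10 (GENCODE gene ENSMUSG00000092341, type lincRNA). In the endothelium of the ATV:BACE1 control it was 5.98%, 6.06% and 6.68% of UMIs in replicates 1, 4 and 5. In nonTV:Malat1 it was 4.50%, 4.42% and 5.24%, and in Malat1 ASO 3.60% and 4.20% in replicates 1 and 5. In OTV:Malat1 it was 1.93%, 1.41% and 2.16%. The 4 groups formed an order with no overlap between libraries of any of the 6 pairs: control highest, then nonTV:Malat1, then the free ASO, then OTV:Malat1. Group means were 6.24% ± 0.378, 4.72% ± 0.453, 3.90% ± 0.422 and 1.83% ± 0.384 (SD; n = 3, 3, 2 and 3), so the 3 ASO groups were at 75.7%, 62.5% and 29.4% of control. The exact binomial 95% interval of the shallowest library, control replicate 4, was 5.88% to 6.26%; such intervals cover counting error only. Exact two-sided permutation tests of the library shares gave p = 0.1 for 3 libraries against 3 and p = 0.2 for 3 against 2, the smallest these designs allow.

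The model across genes separated these steps unequally. Malat1 fell by 1.86 on the log2 scale in OTV:Malat1 against control (SE 0.116, adjusted p = 2.64e-14, edgeR quasi-likelihood test with replicate as block and Benjamini-Hochberg adjustment over 4449 genes), with within-batch log2 ratios of -1.63, -2.11 and -1.63 in replicates 1, 4 and 5. It fell by 0.80 in the free ASO group (SE 0.132, edgeR adjusted p = 0.00133), a call that is lost without the replicate block (log2 change -0.72, edgeR adjusted p = 0.33). Its within-batch ratios were -0.73 and -0.67 in replicates 1 and 5. In nonTV:Malat1 the log2 change was -0.43 (SE 0.112, 95% interval -0.66 to -0.20 for this gene alone), with an edgeR adjusted p = 0.35, so it was not called. Without the filter on low counts the same change was -0.37 and was called (edgeR adjusted p = 0.011), as it was without OTV:Malat1 replicate 4 (-0.44, edgeR adjusted p = 0.032). Within the batches, the log2 ratio of nonTV:Malat1 to control was -0.41, -0.46 and -0.35 in replicates 1, 4 and 5, lower in 3 of 3.

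OTV:Malat1 was also set against the other ASO groups directly. Its Malat1 fell by 1.43 on the log2 scale against nonTV:Malat1 at the same dose (SE 0.115, edgeR adjusted p = 5.81e-11), with within-batch ratios of -1.22, -1.65 and -1.28. It fell by 1.06 against the free ASO (SE 0.127, edgeR adjusted p = 3.11e-06), with -0.90 and -0.96 within replicates 1 and 5. The dose of the free oligonucleotide, 2.5 mg/kg, is of the ASO alone and is not matched to 60 mg/kg of a conjugate by these labels. Between nonTV:Malat1 and the free ASO the log2 difference was 0.37 (SE 0.131, edgeR adjusted p = 0.80, not called), with 0.32 in each of replicates 1 and 5. Both free ASO libraries were below all 3 nonTV:Malat1 libraries.

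**Figure D2:**
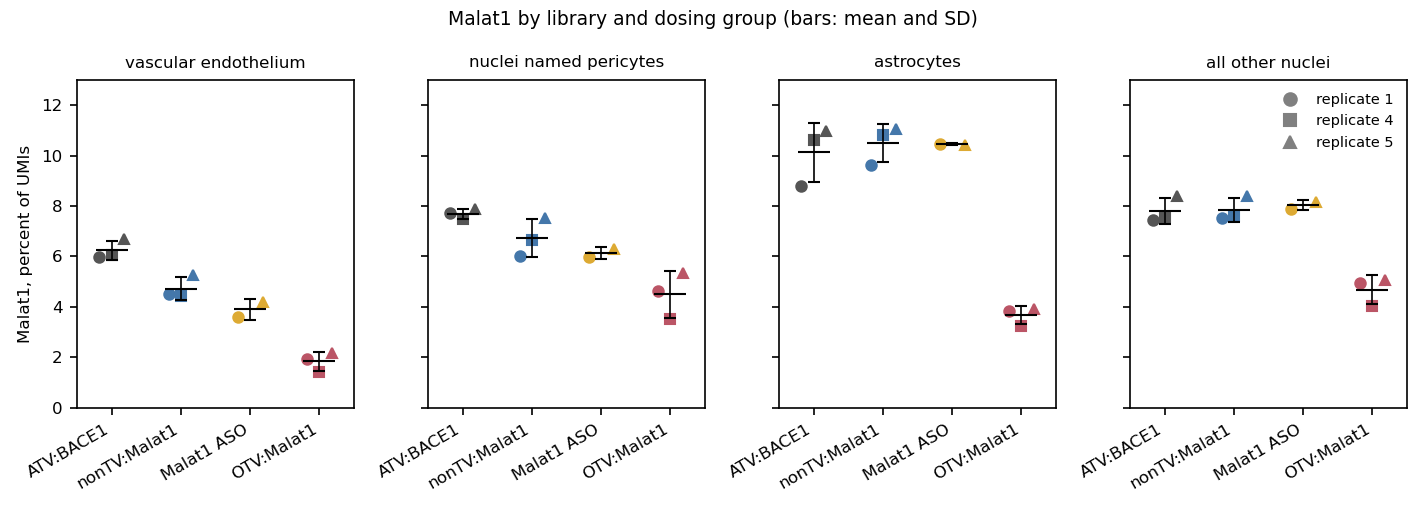
Malat1 as percent of UMIs (y axis) in each library by dosing group (x axis), in vascular endothelium, nuclei named pericytes, astrocytes and all other nuclei; symbols give the replicate number, bars the group mean and SD. In vascular endothelium the 4 groups do not overlap, from 5.98% or more in control to 2.16% or less in OTV:Malat1, whereas in all other nuclei the control, nonTV:Malat1 and Malat1 ASO groups overlap.

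Malat1 was measured the same way in other classes of the same libraries. In all other nuclei, nonTV:Malat1 stood at 101% and the free ASO at 103% of control, and both overlapped it, while OTV:Malat1 stood at 59.9%. In astrocytes, the glial cells whose end-feet wrap the vessels, the same groups stood at 104%, 103% and 36.2%. In nuclei named pericytes they stood at 87.5%, 80.0% and 58.4%. The library-wise log2 ratio of Malat1 in endothelium to all other nuclei lay between -0.33 and -0.31 in the 3 control libraries. It lay between -0.78 and -0.68 in nonTV:Malat1, -1.13 and -0.96 in the free ASO, and -1.51 and -1.22 in OTV:Malat1. None of the ASO groups overlapped control in this ratio (exact permutation p = 0.1, 0.2 and 0.1, the smallest possible).

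The difference between classes was tested as a class-by-group interaction over the 4449 genes. Against nuclei named pericytes, the fall of Malat1 in endothelium was larger by 1.02 on the log2 scale in OTV:Malat1 (interaction -1.02, SE 0.0696, edgeR adjusted p = 6.09e-15) and by 0.40 in the free ASO group (interaction -0.40, SE 0.0793, edgeR adjusted p = 0.0089). The second call is lost without the replicate block (-0.37, edgeR adjusted p = 0.058). It is also lost without control replicate 1 (-0.44), 4 (-0.36) or 5 (-0.36), or without free ASO replicate 1 (-0.28). In nonTV:Malat1 it was -0.24 (SE 0.0687, edgeR adjusted p = 0.118) and was not called, except without nonTV:Malat1 replicate 1 (-0.30, edgeR adjusted p = 0.018). Since nuclei named pericytes carried endothelial transcripts too, this comparison is between annotated classes that share part of their RNA. Over all genes it called 7 in OTV:Malat1 (0.157%), 33 in nonTV:Malat1 (0.742%) and 11 in the free ASO group (0.247%), where limma called 1 (0.0225%), 22 (0.494%) and 5 (0.112%). Against all other nuclei the interactions were -1.06, -0.41 and -0.78 for OTV:Malat1, nonTV:Malat1 and the free ASO, with SEs of 0.673, 0.671 and 0.775, and none was called (edgeR adjusted p = 0.93, 1.00 and 0.95). In these SEs the spread of a gene is estimated partly from other genes. The library-wise log2 ratios of Malat1 had SDs of 0.00803 in control, 0.0523 in nonTV:Malat1, 0.122 in the free ASO and 0.143 in OTV:Malat1. The missing calls thus do not rest on the spread of Malat1 alone. Because these SEs were large, a limma fit of the log2 ratio within each library was added after the data were seen. It gave -1.04 (95% interval -1.65 to -0.43 for this gene alone), -0.41 (-1.02 to 0.20) and -0.76 (-1.46 to -0.05), and none was called (limma adjusted p = 0.67, 0.92 and 1.00). Against astrocytes they were -0.31, -0.49 and -0.88, with SEs of 0.355, 0.355 and 0.410, and none was called (edgeR adjusted p = 0.97, 0.99 and 0.78). By limma they were -0.32 (-0.76 to 0.11), -0.46 (-0.89 to -0.03) and -0.81 (-1.31 to -0.30), with none called (limma adjusted p = 0.88, 0.85 and 0.58).

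Lower Malat1 was seen across most nuclei of the class. Each nucleus was thinned at random to 500 UMIs, which left out 1 nucleus. Library medians were then 5.4%, 5.9% and 6.2% in control, 4.4%, 4.2% and 4.8% in nonTV:Malat1, 3.3% and 3.8% in the free ASO, and 1.6%, 1.4% and 1.6% in OTV:Malat1. The lower quartile of the pooled control nuclei was 4.6%, and 22.3% of control nuclei lay under it. Under that value lay 52.2% of nonTV:Malat1 nuclei, 72.1% of free ASO nuclei and 91.3% of OTV:Malat1 nuclei. Nuclei with no Malat1 UMI among the 500 occurred in OTV:Malat1 alone, with 2, 2 and 3 nuclei in its libraries. A few OTV:Malat1 nuclei stayed high: the highest of replicate 1 held 9.4%, above the control upper quartile of 7.0%.

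**Figure D3:**
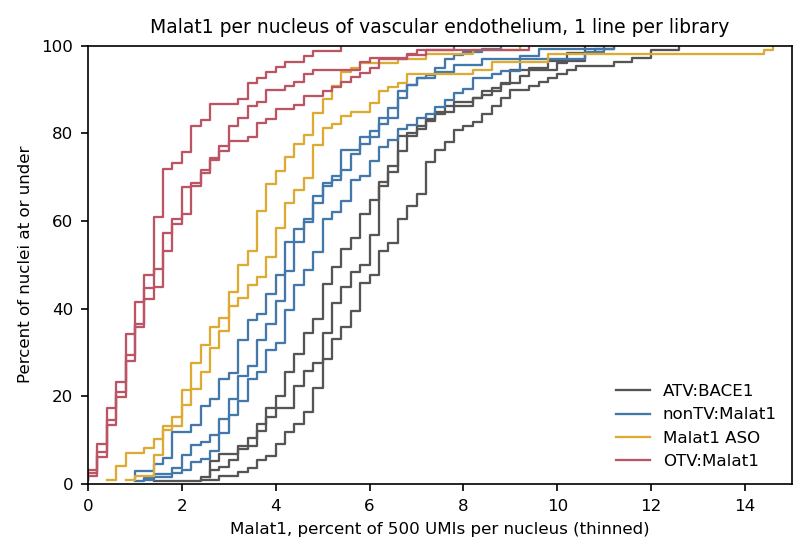
Cumulative percent of vascular endothelium nuclei (y axis) at or under a given Malat1 share of 500 thinned UMIs (x axis), 1 line per library, coloured by dosing group. The 3 OTV:Malat1 lines rise first, with medians of 1.4% to 1.6%, followed by the free ASO, nonTV:Malat1 and the control, whose medians are 5.4% to 6.2%.

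Group means kept the same order in parts of the class. In nuclei with a prediction score of 0.9 or more, nonTV:Malat1, the free ASO and OTV:Malat1 stood at 71.7%, 59.9% and 23.1% of control. In nuclei scoring under 0.7 they stood at 76.8%, 70.8% and 35.0%, and there nonTV:Malat1 (4.89% to 6.18%) and the free ASO (4.81% to 5.30%) overlapped. They overlapped too in nuclei with more UMIs of arterial than of venous genes (lowest nonTV:Malat1 library 4.59%, highest free ASO library 4.65%) and in those with the reverse (3.90% and 4.17%), parts that rest on few UMIs per nucleus. In nuclei with 1000 UMIs or more they stood at 74.8%, 62.8% and 28.5%, and in the shallower ones at 78.0%, 60.1% and 31.2%. How the groups differ between these parts was not tested.

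Beyond Malat1 few genes were called between groups. Against control, OTV:Malat1 had 3 lower genes and none higher of 4449 tested (0.0674%, edgeR adjusted p under 0.05): Malat1, Wdr17 and Luzp2. The free ASO group had 10 lower genes (0.225%) and 2 higher (0.045%), 0.27% in all. nonTV:Malat1 had none (0%) by edgeR or by DESeq2, with 197 genes at an unadjusted p under 0.05 by edgeR and 44 by DESeq2. OTV:Malat1 differed from nonTV:Malat1 and from the free ASO in 1 gene each (0.0225%), Malat1. Between nonTV:Malat1 and the free ASO none was called by edgeR or DESeq2 (0%), with 196 and 47 genes at an unadjusted p under 0.05. The genes of smallest p that were not called included Lsamp (log2 difference -1.17, edgeR adjusted p = 0.12) and Trpm3 (-1.39, 0.30) in nonTV:Malat1 against control. They included Ttr (-0.84, 0.17) and Kctd16 (-1.95, 0.36) in OTV:Malat1 against nonTV:Malat1, and Chka (-1.67, 0.14) and Mdga2 (-1.60, 0.35) against the free ASO. Between nonTV:Malat1 and the free ASO they were Npas3 (2.70, edgeR adjusted p = 0.24), Chka (-1.45, 0.27) and Nrg1 (-1.62, 0.27). The counts moved with single libraries. For OTV:Malat1 against control 1 gene was called without OTV:Malat1 replicate 1, 9 without its replicate 5, 12 without control replicate 5, and 13 and 12 without free ASO replicates 1 and 5. For the free ASO 2 were called without control replicate 1, 5 without control replicate 4 or nonTV:Malat1 replicate 4, and 20 without free ASO replicate 5. For nonTV:Malat1, 0 to 5 were called, the most without control replicate 5.

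Wdr17 was at 283, 153 and 159 normalised CPM in the control libraries and at 37.7, 54.7 and 72.2 in OTV:Malat1, with no overlap, a log2 change of -1.97 (SE 0.387, edgeR adjusted p = 0.024). Its level in astrocytes was 3205 CPM against 111 CPM in the endothelium. Luzp2 was at 256, 119 and 134 normalised CPM in control and at 31.4, 63.8 and 41.3 in OTV:Malat1, a log2 change of -1.98 (SE 0.417, edgeR adjusted p = 0.049). Its level in astrocytes was 2825 CPM against 86.7 CPM. Both genes were lower in the free ASO group too, with log2 changes of -1.94 and -2.11 (edgeR adjusted p = 0.028 for each); the control libraries are the same in both comparisons.

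In the free ASO group the channel gene Trpm3 fell by 2.73 on the log2 scale (edgeR adjusted p = 0.00072), from 390, 119 and 302 normalised CPM in control to 76.2 and 23.3. Npas3, a neural transcription factor, fell by 3.13. Gpc5, a glypican used here as an astrocyte marker, fell by 2.48, on 0 UMIs in free ASO replicate 5. Without free ASO replicate 1 that group holds no UMI of Gpc5, so the fitted coefficient is no fold. Without free ASO replicate 5 the log2 change of Gpc5 was -1.59, and 7 of 19 alternatives lost the call. Slc1a2, the main glutamate transporter of astrocytes, fell by 1.37 and Lsamp, a cell adhesion molecule, fell by 1.66. The level of Gpc5 was 7411 CPM in astrocytes against 187 CPM in the endothelium, and that of Slc1a2 was 5826 against 332 CPM. Gm20713 fell by 4.71, on 1 and 0 UMIs in the 2 free ASO libraries. Its fitted coefficient ran from -7.24 to -3.55 over 17 alternatives, of which 7 lost the call. Without free ASO replicate 1 that group holds no UMI of Gm20713, so the coefficient there is no fold. Gm20713 lies inside Gpc5 on the opposite strand, and no source used here says that counting used strand, so its reads are uncertain. Dusp1, a phosphatase induced by stress, rose by 1.42 (edgeR adjusted p = 0.028), from 155, 68.2 and 176 normalised CPM in control to 353 and 435. Zbtb16, a transcription factor induced by corticosteroids, rose by 2.22 (edgeR adjusted p = 0.028), from 20.2, 51.2 and 50.4 normalised CPM to 208 and 109. Neither Dusp1 nor Zbtb16 was called with DESeq2 or without the replicate block.

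Hbb-bs, a haemoglobin chain of red blood cells, was called lower in the free ASO group on 1 library. It had 175 UMIs in control replicate 1 and none in the other control libraries or in either free ASO library, so no fold change is given. Without control replicate 1 neither of those groups holds a UMI of the gene.

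RNA of the astrocyte markers, 1 of the 23 gene lists, was lower in the 2 free ASO libraries than in control and overlapped control in OTV:Malat1. The sums of 18 of the 23 lists overlapped control in each ASO group, and no p is given for the astrocyte sum. With 2 libraries against 3, full separation reaches no exact two-sided permutation p under 0.2. The summed level of the 10 astrocyte markers was 1187 to 1850 CPM in control, 1073 to 1321 in nonTV:Malat1, 593 to 766 in the free ASO and 848 to 1378 in OTV:Malat1. None of the 10 markers was at 0 over the class. Of the control nuclei 10 lay outside the main cluster (3.42%), against 2 in the free ASO group (0.98%) and 5 in OTV:Malat1 (1.74%). In the nuclei of the main cluster alone the summed level was 727 to 937 CPM in control, 542 to 593 in the free ASO and 793 to 854 in OTV:Malat1. The part of astrocyte RNA in these calls was not tested. With those nuclei alone, Malat1 was the only gene called in OTV:Malat1 and the only one in the free ASO group. There Dusp1 had a log2 change of 1.47 in the free ASO group (edgeR adjusted p = 0.063), Zbtb16 of 2.12 (0.15), Trpm3 of -1.77 (0.44), Lsamp of -0.94 (0.44) and Slc1a2 of -0.65 (0.93). Wdr17, Luzp2, Npas3, Gpc5 and Gm20713 fell under the filter on low counts there and were not tested, so nothing is said of their change. Wdr17 was left with 8, 1 and 8 UMIs in control replicates 1, 4 and 5 and 6, 1 and 1 in OTV:Malat1, and Luzp2 with 3, 5 and 5 against 5, 5 and 1. Npas3 was left with 7, 2 and 7 UMIs in control and 2 in each free ASO library. In free ASO replicates 1 and 5 Wdr17 was left with 1 and 10 UMIs and Luzp2 with 4 and 5, and both overlapped control in CPM. With called doublets left out, 1 gene was called in OTV:Malat1 and 7 in the free ASO group, Malat1 and Dusp1 among them. Without the replicate block 1 and 0 genes were called. Without control replicate 1, the library with the most astrocyte RNA, 2 were called in each comparison: Malat1 and Hbb-bs, then higher, in OTV:Malat1, and Malat1 and Trpm3 in the free ASO group.

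**Figure D4:**
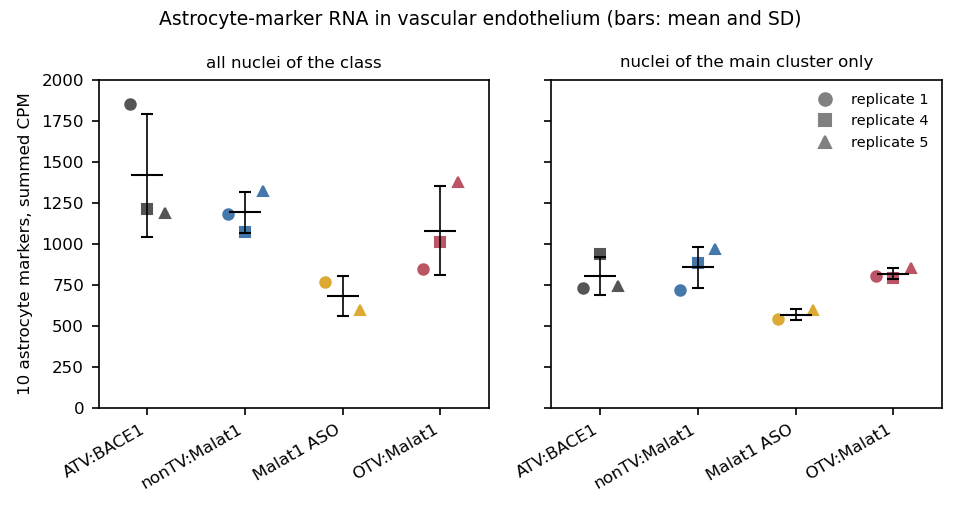
Summed CPM of 10 astrocyte markers (y axis) in vascular endothelium by library and dosing group (x axis), for all nuclei of the class and for the nuclei of the main cluster alone; symbols give the replicate number, bars the mean and SD. The highest library, control replicate 1 at 1850 CPM, falls within 727 to 937 CPM with the other controls when only main-cluster nuclei are kept, and both free ASO libraries are lowest in each panel.

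The lists of endothelial genes held no called gene in any of the 6 comparisons across 11 lists: identity, junctions, solute carriers, efflux pumps, cargo receptors, vesicle sorting, Wnt, growth factor signalling, arterial, capillary and venous genes. Over all 4449 genes the share called in these comparisons was 0% to 0.27%, so lists of this size would rarely hold one and the absence of calls is no result about them. The summed level of the 18 junction genes was 6592, 6691 and 6834 CPM in control replicates 1, 4 and 5. It was 7866, 8007 and 7035 CPM in nonTV:Malat1, 8479 and 7820 in the free ASO, and 7144, 8113 and 7057 in OTV:Malat1. All 8 ASO libraries were above the 3 controls, and in the main cluster alone they were at 7071 CPM or more against 6925 or less. These CPM keep Malat1 in the total, so a lower Malat1 share raises the CPM of every other gene. Malat1 was 5.98% to 6.68% of UMIs in control and 1.41% to 2.16% in OTV:Malat1. With Malat1 taken out of each total, control replicate 5 lies above OTV:Malat1 replicates 1 and 5. OTV:Malat1 and control then overlap in the junction sum, in the main cluster alone too. The junction list was picked out after the sums of all lists were seen. The sums of the other 10 endothelial lists overlapped control in each ASO group, as did 18 of all 23 lists. No p is given for such a sum. Flt1 had log2 changes of 0.09, 0.02 and 0.09 in OTV:Malat1, nonTV:Malat1 and the free ASO against control (SE 0.135, 0.135 and 0.156), and Cldn5 of -0.19, 0.12 and 0.25 (SE 0.149, 0.148 and 0.167). The 95% intervals for Flt1 ran from -0.18 to 0.37, -0.26 to 0.29 and -0.23 to 0.40. For Tfrc the log2 changes were -0.13, 0.09 and -0.64 (SE 0.255, 0.248 and 0.305), and the lowest interval reached -1.26. For Slc2a1 they were 0.22, 0.21 and 0.55 (SE 0.181, 0.182 and 0.201), and for Abcb1a 0.03, 0.07 and 0.18 (SE 0.181, 0.180 and 0.205). None of these genes was called.

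Medians over the lists are given beside that of all genes tested, which was 0.00, 0.00 and 0.01 for OTV:Malat1, nonTV:Malat1 and the free ASO against control. Over the 30 tested identity genes the median log2 change was 0.09 in OTV:Malat1, 0.12 in nonTV:Malat1 and 0.09 in the free ASO. Over the 15 tested junction genes it was 0.21, 0.16 and 0.27, and over the 12 tested basement membrane and matrix genes 0.32, 0.16 and 0.34. The 9 tested cargo receptors had medians of 0.06, 0.09 and 0.11. The 6 tested astrocyte markers had medians of -0.31, -0.34 and -1.25, with Gpc5 and Slc1a2 called lower in the free ASO group, against 0.225% of all genes. Neither was called with DESeq2 or without the replicate block. In the main cluster alone Slc1a2 was not called and Gpc5 was not tested.

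Genes of inflammation and RNA handling were also without calls against control, with 1 exception. Of the 4 tested activation genes none was called, against 0% to 0.27% of all genes, so these counts are again no result about the lists. The summed level of that list was 666 to 922 CPM in control and 1076 and 1071 CPM in the free ASO, with no overlap, while nonTV:Malat1 at 833 to 1059 and OTV:Malat1 at 841 to 1107 overlapped control. This list too was picked out among the 23 after the sums were seen. Nfkbia had log2 changes of 0.02, -0.02 and 0.39 in OTV:Malat1, nonTV:Malat1 and the free ASO. Of the 8 tested interferon and sensing genes none was called, with medians of -0.17, 0.05 and -0.10, and Isg15 had -0.40, -0.19 and -0.32. Of the 17 tested genes of nuclear RNA and RNase H machinery none was called. Neat1, the nuclear RNA whose gene lies beside Malat1, had log2 changes of 0.01, -0.01 and -0.21, with 95% intervals within -0.79 to 0.53. The exception was Zbtb16, 1 of 10 tested corticosteroid-responsive genes, called higher in the free ASO group, against 0.045% of all genes. Its call was lost with DESeq2, without the replicate block and in the main cluster alone. The median log2 change of the corticosteroid list was -0.02, -0.02 and 0.53. Its summed level was 1847 to 1976 CPM in control and 2236 and 2296 CPM in the free ASO, with no overlap, while nonTV:Malat1 at 1772 to 2294 and OTV:Malat1 at 1913 to 2230 overlapped control. In all other nuclei of the same libraries, which are no independent samples, this sum was 864 to 993 CPM in control. It was 1082 and 998 CPM in the free ASO, without overlap. Group means there were 927 CPM in control, 1001 in nonTV:Malat1, 1040 in the free ASO and 997 in OTV:Malat1. The 10 microglia and macrophage markers summed to 213 to 266 CPM in control and to 204 and 200 CPM in the free ASO, but overlapped in the main cluster alone, and the median log2 change of the 2 markers tested was 0.28, of the opposite sign. Both lists were picked out after the sums were seen, and no p is given. Even without overlap, an exact two-sided permutation test of 3 libraries against 2 cannot go under p = 0.2.

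**Figure D5:**
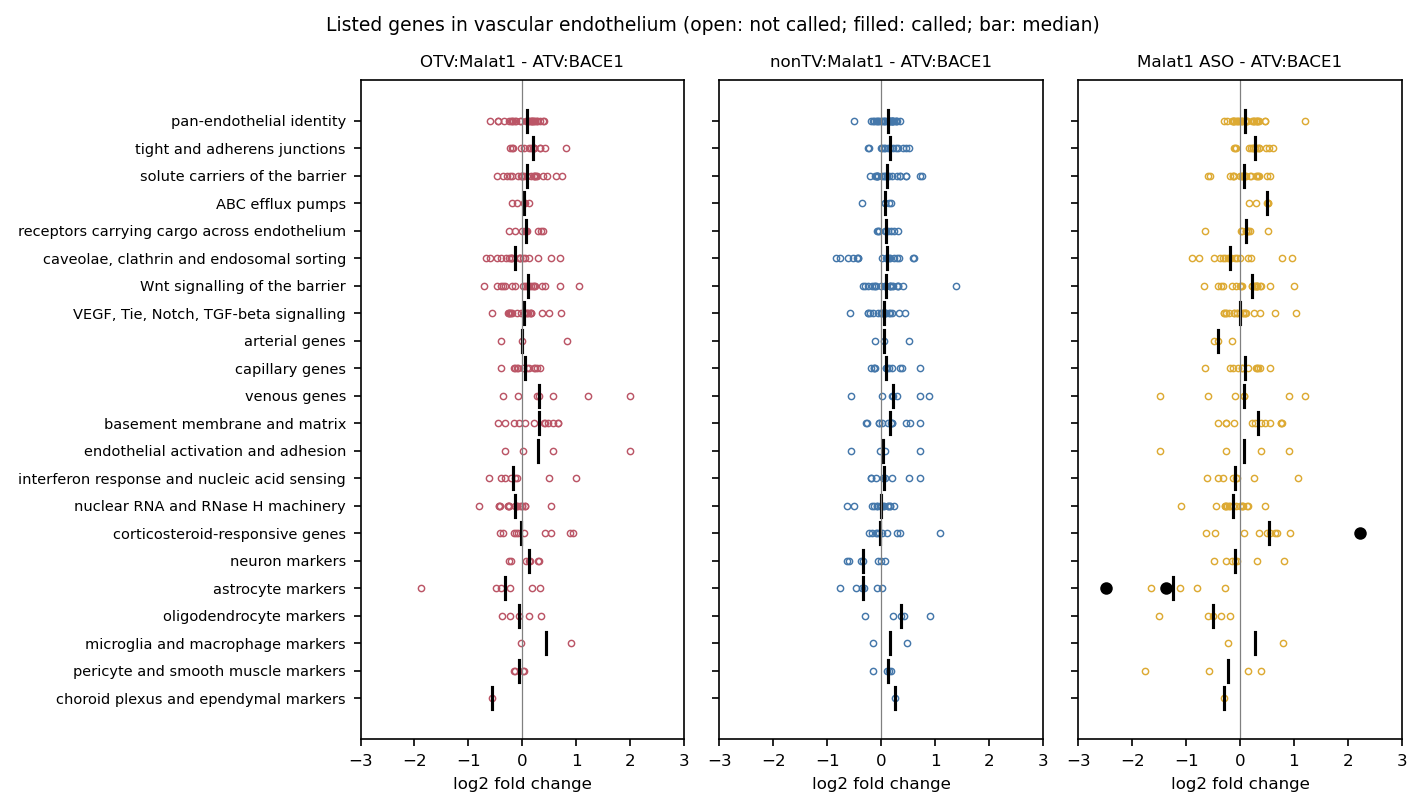
Log2 fold changes (x axis) of the tested members of each gene list (y axis) in vascular endothelium for the 3 ASO groups against the ATV:BACE1 control, 1 circle per gene; filled circles were called, vertical bars are list medians. The only filled circles are Gpc5 and Slc1a2 among astrocyte markers and Zbtb16 among corticosteroid-responsive genes, all in the free ASO group.

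The share of nuclei named vascular endothelium did not separate the groups. It was 0.933% ± 0.303 of a library's nuclei in control, 1.15% ± 0.313 in nonTV:Malat1, 1.05% ± 0.0301 in the free ASO and 0.938% ± 0.213 in OTV:Malat1 (SD; n = 3, 3, 2 and 3). All 6 pairs of groups overlapped, and log2 differences of the nucleus counts ran from -0.25 to 0.30, with SEs from 0.404 to 0.479 and none called (edgeR adjusted p = 0.99 or more).

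The replicate number, with which batch, sex and age go, was a term of the model and was called for 49 of 4449 genes (1.1%, edgeR adjusted p under 0.05).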

How the data were processed

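The deposited matrix held UMI counts, whole and not normalized, of 25938 gene symbols in 110304 nuclei. Per the submitters' processing notes Cell Ranger 5.0.0, Seurat 4 and the mm10 build were used; no source used here gives their roles, the cell filters or the reference for label transfer. The authors' deposited metadata gave class names, a prediction score (a fraction from 0 to 1), the percent of mitochondrial reads, clusters, doublet calls and batch. The table names genes by symbol, and positions are from GENCODE vM21 on the same build.

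Counts were summed over the nuclei of the class in each library (11 libraries, 58 to 134 nuclei) and tested in edgeR 4.0.16 (R 4.3.3; glmQLFit, glmQLFTest, TMM, filterByExpr by group). The replicate number was a block, and 6 contrasts were adjusted over 4449 genes at 0.05. Batch numbers coincide with replicate numbers, which pairs the libraries. The correlation of same-numbered libraries, after removing group means, had a median of 0.100 (0.00144 to 0.216, 15 pairs), against -0.0457 over 30 other pairs. Deviations from a group mean cancel within the group, so the other pairs are no independent reference for the same-numbered ones. The class-by-group interaction was fitted with the library as block. DESeq2 1.42.0 was an alternative. limma 3.58.1, on log2 ratios within a library (prior count 2), was added after the data were seen. Normalised CPM are TMM-scaled. Other CPM are plain, with Malat1 in the total. Scripts were tested on simulated data. Python 3.11.15 (numpy 2.4.6, scipy 1.17.1, pandas 2.3.3, matplotlib 3.10.9) did the rest.

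Named genes are Malat1, the 3 markers, up to 4 members of each of 23 lists by CPM, the 15 genes of highest ratio at 100 CPM or more, and the called genes (at most 10 a contrast by size of change, except that all 12 of the free ASO contrast are given), the 3 of smallest p where fewer than 3 were called, and 5 of the batch term. The text gives a selection of the genes that this rule allows; 1 gene is not reported here. The members and lists were chosen with earlier results of these data known.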

Additional observations from a re-analysis of the deposited data

Results flagged for a closer look

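Differences between vascular endothelium and another class in the response to dosing were tested as class-by-group interactions, on the log2 scale and adjusted over 4449 genes by edgeR. Negative values mean that the change against ATV:BACE1 was lower in endothelium. For Malat1 against nuclei named pericytes the interaction was -1.02 in OTV:Malat1 (-1.02192 before rounding, adjusted p = 6.09e-15) and -0.40 in Malat1 ASO (adjusted p = 0.0089); both were also called by the added limma fit.

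Of the genes called in endothelium, those whose interaction was called too are given here. The same endothelial sums enter both tests, so these interactions are no independent support for the calls. Trpm3 in Malat1 ASO differed from all other nuclei by -2.75 (adjusted p = 0.040), from astrocytes by -2.84 (adjusted p = 0.039) and from nuclei named pericytes by -2.74 (adjusted p = 0.014). By limma it was called against astrocytes (-2.49, adjusted p = 0.013), and not against all other nuclei (-2.45, adjusted p = 0.12) or nuclei named pericytes (-2.63, adjusted p = 0.13). Against nuclei named pericytes in the same group Npas3 differed by -3.49, Wdr17 by -2.93, Gpc5 by -2.70 and Lsamp by -1.45 (adjusted p = 0.00067 to 0.0031). Limma called Npas3, Gpc5 and Lsamp there but not Wdr17 (-2.43, adjusted p = 0.051). In OTV:Malat1 Luzp2 differed by -2.74 and Wdr17 by -2.69 from nuclei named pericytes (adjusted p = 0.0048 and 0.0087), and neither was called by limma (-2.08 and -2.23, adjusted p = 0.098 and 0.077). In the endothelium of the main cluster alone, Trpm3 (-1.77) and Lsamp (-0.94) in Malat1 ASO were not called, and Npas3, Wdr17, Gpc5 and Luzp2 fell under the filter on low counts and were not tested.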

How the results depend on the processing

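Malat1 in OTV:Malat1 kept its direction and its call under every alternative run, in all 3 contrasts. Against the control in nonTV:Malat1 the change was called without the filter on low counts (-0.37, adjusted p = 0.011), and ranged from -0.50 to -0.34 with single libraries left out. In Malat1 ASO it was -0.72 and not called without the replicate block (adjusted p = 0.33). Against nuclei named pericytes the interaction in Malat1 ASO was -0.37 without the replicate block (adjusted p = 0.058) and -0.47 to -0.28 with single libraries left out; in nonTV:Malat1 it was -0.30 to -0.17. The cause was not tested for any of these. The added limma fit on library ratios gave -0.99, -0.21 and -0.37 for OTV:Malat1, nonTV:Malat1 and Malat1 ASO, and called the first and the last, as edgeR did. Over all genes it called fewer: 1, 22 and 5.

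Counts of called genes were less stable. For OTV:Malat1 against control 1 gene was called without the replicate block, with DESeq2, with doublets left out or in the main cluster alone, 13 without the filter, and 1 to 13 with single libraries left out. For nonTV:Malat1 against control 6 were called without the filter, 1 in the main cluster alone (Lsamp) and 0 to 5 with libraries left out. For Malat1 ASO against control 0 were called without the replicate block, 4 with DESeq2, 7 with doublets left out, 7 with nuclei under 1000 UMIs left out, 1 in the main cluster alone and 2 to 20 with libraries left out. The lowest was without control replicate 1 and the highest without Malat1 ASO replicate 5, which leaves 1 library in that group, assumed to vary like the others. For OTV:Malat1 against nonTV:Malat1 2 were called without the filter and 1 to 2 with libraries left out. For OTV:Malat1 against Malat1 ASO 2 were called with DESeq2, 2 without the filter and 1 to 11 with libraries left out. For nonTV:Malat1 against Malat1 ASO 4 were called without the filter, 1 with doublets left out and 0 to 11 with libraries left out. Removing the filter raises the genes tested from 4449 to 18177.

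List members called against control were 1 in OTV:Malat1 without the filter and 0 to 1 with libraries left out. In Malat1 ASO they were 0 without the replicate block, with DESeq2 or in the main cluster alone, 1 with doublets or nuclei under 1000 UMIs left out, and 0 to 3 with libraries left out. Between OTV:Malat1 and nonTV:Malat1 1 was called without the filter (0 to 1 with libraries left out), and between nonTV:Malat1 and Malat1 ASO 1 with doublets left out (0 to 1). The fitted coefficient of Hbb-bs in Malat1 ASO, which is no fold because that group holds no UMI of it, was -22.7 with DESeq2 and -14.4 to 0.51 with libraries left out. The last is without control replicate 1, where neither group holds a UMI. Log2 differences in nuclei of the class, none called, ranged with libraries left out from -0.35 to 0.34 for OTV:Malat1 and -0.085 to 0.29 for Malat1 ASO against control. For nonTV:Malat1 they ranged from 0.091 to 0.50 against control and from 0.15 to 0.37 against Malat1 ASO. They ranged from -0.66 to 0.034 for OTV:Malat1 against nonTV:Malat1 and from -0.30 to 0.33 against Malat1 ASO. The batch term held 81 genes without the filter and 24 to 85 with libraries left out. Depth was a median of 960.5 UMIs per nucleus and as few as 60084 UMIs in a library, and the filter on low counts left 4449 of 18177 genes with a UMI in the test.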

Other observations

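The replicate number, which goes with batch, sex and age, was a term of the model for vascular endothelium, tested over both of its coefficients together, and was called for 49 of 4449 genes (1.1%, edgeR adjusted p under 0.05). The 5 genes of smallest p were Xist, which silences an X chromosome in females, the Y-linked gene Uty, and Cmss1, Gm42418 and AY036118. Xist had log2 differences of -7.60 and -9.96 in replicates 4 and 5, the males, from replicate 1, and Uty was higher by 6.97 and 6.69. Cmss1 was higher by 1.18 and 2.19, Gm42418 by 1.25 and 1.44, and AY036118 by 1.58 and 1.70. Gm42418 and AY036118 lie over ribosomal RNA sequence in the mouse annotation, so their reads are uncertain.

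Of the 12 pericyte and smooth muscle markers 4 were tested and 2, Vtn and Atp13a5, were called in that term, against 1.1% of all genes, with Vtn higher by 0.44 and 2.03 and Atp13a5 by 1.51 and 3.02 in replicates 4 and 5 than in replicate 1. The elastin gene Eln, chosen here after its values were seen, had differences of -2.43 and -2.85. None of the 12 markers was at 0, and their summed level was 979 to 1230 CPM in the 4 libraries of replicate 1, 1293 to 1431 in the 3 of replicate 4 and 1481 to 2192 in the 4 of replicate 5. This split by replicate was worked out for the pericyte and smooth muscle list alone. How many other lists would separate in this way is not given. Between nonTV:Malat1 and control, 33 of 4449 genes (0.742%) differed in their change between endothelium and nuclei named pericytes, among them Kcnip4 (-2.28) and Lsamp (-1.53); Kcnip4 was chosen after its values were seen.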
